A study of Homo sapiens with 7 samples.

Results

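The CXCL2 chemokine cluster on chromosome 4 carried super-enhancers (SEs) in tunicamycin-treated HepG2 cells and none that reached a DMSO list. Its members were the SEs listed on chromosome 4 between positions 74500000 and 75600000, whatever gene each was linked to. Of 7472 SEs listed over 6 libraries, 6 met this rule. They belonged to 3 of 1784 merged regions, each linked to 1 nearest gene: CXCL2 in 3 libraries, EREG in 2 and PPBPP2 in 1. All 6 came from TM libraries. CXCL2 encodes a CXC chemokine, a small secreted protein that binds the receptor CXCR2 and draws neutrophils. EREG encodes epiregulin, a ligand of the epidermal growth factor (EGF) receptor family, and PPBPP2 is a pseudogene of the platelet basic protein gene.

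CXC chemokines that share CXCR2 are encoded by neighbouring genes that arose by duplication, and several are induced by the transcription factor NF-kB in inflamed or injured tissue, the liver included. A group of EGF-family ligand genes lies beside them on the same chromosome. A super-enhancer is a stretch of closely spaced enhancer peaks with an unusually high sum of a mark of active chromatin, and it is usually assigned to the nearest gene.

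The mark measured was H3K27ac (histone H3 acetylated at lysine 27), by ChIP-seq in HepG2, a human liver cancer cell line. The groups were HepG2 treated with tunicamycin (TM), which blocks N-linked glycosylation and so causes endoplasmic reticulum (ER) stress, and HepG2 treated with DMSO, with 3 H3K27ac libraries each (TM 1 to TM 3 and DMSO 1 to DMSO 3). Both groups are this 1 line, and no source used here gives the TM dose or duration for these libraries. Nothing in the labels says that replicates came from separate cultures, and a p-value therefore covers no more than the spread between these samples. Each library had its own list, with 1130, 1507 and 1253 SEs in TM 1 to TM 3, against 1132, 1290 and 1160 in DMSO 1 to DMSO 3. The lowest signal in a list, taken as its threshold, was 18282 to 26265 in TM libraries and 16747 to 24793 in DMSO libraries. An SE that is not listed may still carry H3K27ac below that threshold, and read totals are unknown. Of 19 hepatocyte and HepG2 markers, CPS1 and ONECUT2 were linked to SEs in all 6 libraries and FOXA1 in 2 DMSO libraries. The other 16, with ALB and AFP among them, were not linked in any library. Endothelial and macrophage markers were linked in none, while LUM, of the 6 stellate and fibroblast markers, was linked in 0 TM and 3 DMSO libraries, PDGFRB in 1 TM and 3 DMSO libraries, and KRT7, a biliary marker, in TM 2. The merged region of KRT7 was listed in all 6 libraries and linked to other genes in the rest of them.

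The proximal promoters of CXCL2, its close copy CXCL3 and EREG are printed because the CXCL2 and EREG SEs reached over the linked start sites and because CXCL2 and CXCL3 share an NF-kB word. Each is the 250 bases before the start in RefSeq (GRCh38.p14), read 5′ to 3′ on the strand of the gene. Capitals mark GGGNNTTTC, the first 9 bases of a common NF-kB consensus, in CXCL2 and CXCL3 and TATAAA in EREG.
CXCL2 (minus strand): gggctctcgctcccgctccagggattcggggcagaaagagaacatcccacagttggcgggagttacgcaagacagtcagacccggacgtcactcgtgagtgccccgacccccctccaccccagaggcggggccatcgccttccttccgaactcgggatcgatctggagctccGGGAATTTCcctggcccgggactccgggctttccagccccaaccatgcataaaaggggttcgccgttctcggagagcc
CXCL3 (minus strand): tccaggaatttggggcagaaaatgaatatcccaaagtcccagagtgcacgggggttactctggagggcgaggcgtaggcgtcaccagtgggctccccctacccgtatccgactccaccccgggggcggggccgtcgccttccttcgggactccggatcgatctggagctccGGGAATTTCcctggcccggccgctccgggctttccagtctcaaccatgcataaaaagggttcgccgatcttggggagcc
EREG (plus strand): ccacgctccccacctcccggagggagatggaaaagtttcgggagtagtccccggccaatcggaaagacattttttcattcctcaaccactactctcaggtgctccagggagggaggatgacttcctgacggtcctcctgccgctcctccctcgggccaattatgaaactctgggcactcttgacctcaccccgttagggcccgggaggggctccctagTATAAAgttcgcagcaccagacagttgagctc

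The NF-kB word began 78 bases before the start in CXCL2 and 79 bases before it in CXCL3 and in CXCL1. Among 27303 RefSeq promoters of the same length, 4.12% held it on either strand. The CXCL2 and CXCL3 promoters were identical at 195 of 266 aligned columns (73.3%), and those of CXCL1 and CXCL3 at 81.4%, whereas CXCL2 and EREG were identical at 52.5%. CXCL1, CXCL2 and CXCL3 are near copies of each other, and no source used here says how reads that match several copies were treated. TATAAA was found in EREG, AREG and CXCL8, 32, 29 and 31 bases before the start, and in 11.1% of all promoters. An AP-1 word (TGANTCA) was found in CXCL8, 137 bases before the start, and in 6.60% of promoters, and a cyclic AMP response element (TGACGTCA) in AREG, 65 bases before it, and in 1.77%. The composite C/EBP-ATF word TGATGNAA and the core of the unfolded protein response element, TGACGTGG, were in none of the 6 promoters searched (CXCL1, CXCL2, CXCL3, CXCL8, EREG and AREG), and in 3.19% and 0.667% of all promoters. Both strands were searched, no match overlapped another, and a match is a description of the letters only.

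All 3 TM libraries and 0 DMSO libraries linked an SE to CXCL2 (p = 0.1 by a two-sided exact permutation test, which cannot go lower with 3 against 3). This pattern held for 7.57% of all 1784 merged regions and for 6.94% of the 2002 linked genes, and the reverse pattern for 5.44% and 4.7%. Regions listed in 1 or more TM libraries and no DMSO library, as all 3 members' regions were, made up 24.6%. Without TM 1, 203 regions in place of 135 had the first pattern, and without TM 2, 150 in place of 97 had the reverse. The CXCL2 SE lay at 74963277 to 74983875 in TM 1, 74961135 to 75001364 in TM 2 and 74962561 to 74984139 in TM 3, with positions as deposited, on a build that is not named and is not GRCh38. The 3 extents were nested: the SE of TM 1 was contained in the others, and all 3 together covered 40.2 kb. Each covered the CXCL2 start site (74964997, minus strand). It extended 18.9, 36.4 and 19.1 kb upstream of that site in TM 1, TM 2 and TM 3, and 1.72, 3.86 and 2.44 kb downstream of it. The midpoint was annotated as intergenic in all 3, at -8.58, -16.3 and -8.35 kb from the start site.

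**Figure D1:**
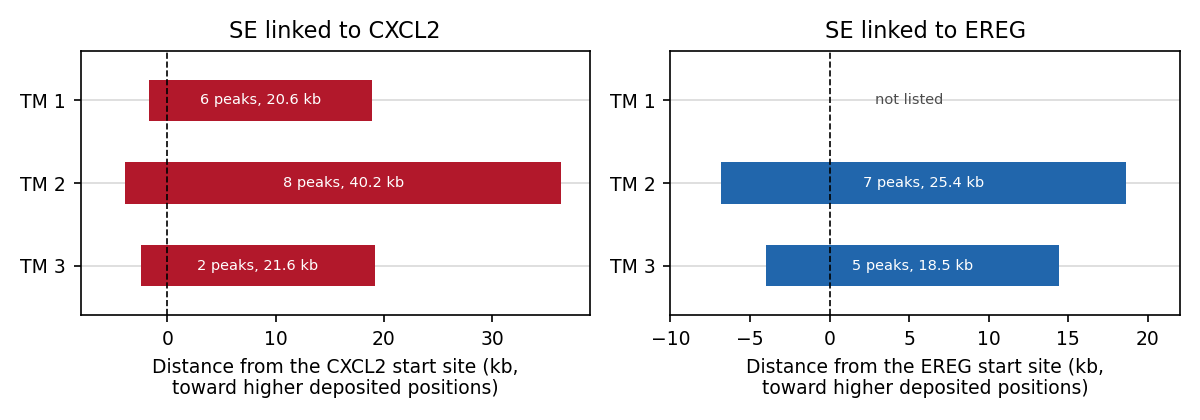
Extent of the listed CXCL2 and EREG SEs in each TM library, as the distance in kb from the linked start site toward higher deposited positions (x axis, upstream to the right for CXCL2 and to the left for EREG), with 1 bar per TM library that listed the SE; no DMSO library did. The CXCL2 bars of TM 1 and TM 3 are 20.6 and 21.6 kb long and lie inside the 40.2 kb bar of TM 2.

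On the deposited scale the CXCL2 SE had a summed signal of 26516 in TM 1, 53891 in TM 2 and 31355 in TM 3 and was not listed in DMSO libraries (37254 ± 14610, SD, n = 3). TM 2 was 2.03 times TM 1. The length of the listed SE was 20.6, 40.2 and 21.6 kb, and TM 2 was 1.95 times TM 1. The density, that is, the signal per base pair, varied less, at 1.29, 1.34 and 1.45 (1.36 ± 0.0848). The number of stitched peaks varied most, with 6, 8 and 2 (5.33 ± 3.06), so the SE of TM 3 reached the density of the others with 2 peaks.

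Within its list the CXCL2 SE ranked 648 of 1130 in TM 1, 531 of 1507 in TM 2 and 598 of 1253 in TM 3. It stood close to the middle of the list in TM 1 and TM 3 and higher in TM 2. It was short and dense. Its length stood at the 9.73, 43.7 and 15.0 percentile of its list, and its density at the 88.1, 64.8 and 86.4 percentile. The density was 1.66, 1.23 and 1.63 times the median SE of its library. On the deposited scale the order by density, with TM 3 above TM 2 and TM 2 above TM 1, was not that by signal, with TM 2 highest and TM 1 lowest. Relative to the median of its library, the density was highest in TM 1 and lowest in TM 2.

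**Figure D2:**
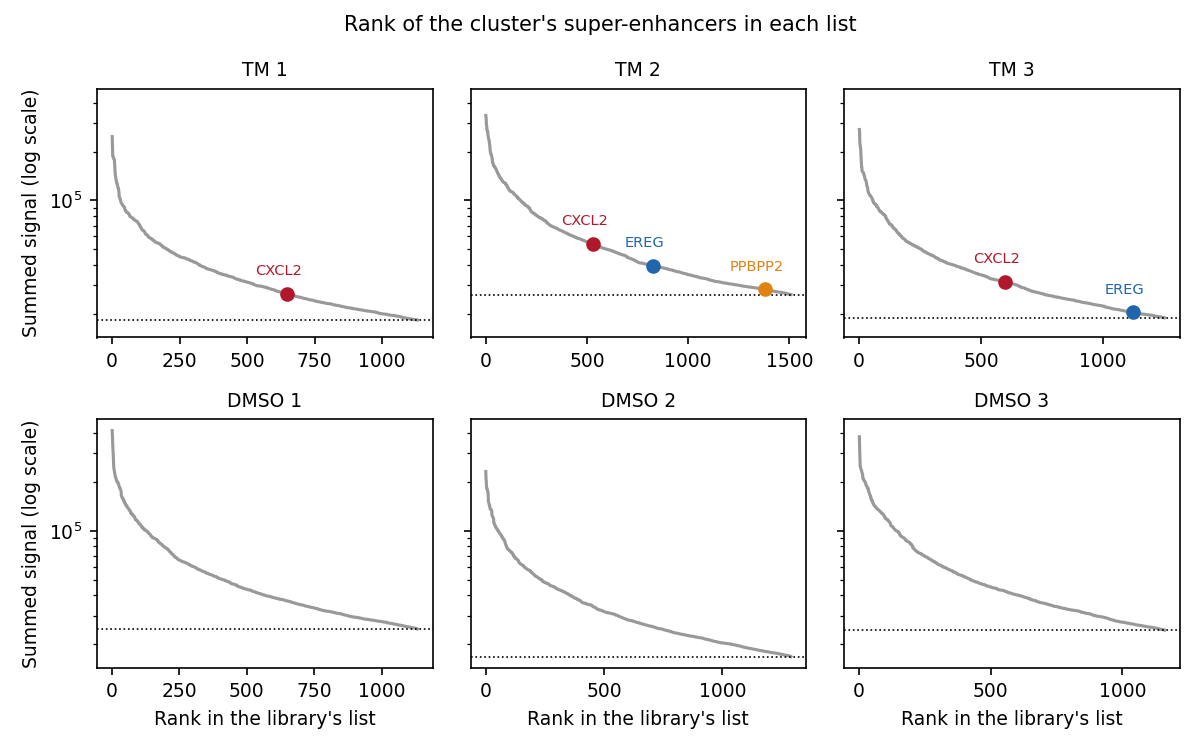
Summed H3K27ac signal (log axis) of every listed SE against its rank in 6 panels, 1 per library with its threshold dotted, TM libraries above DMSO libraries, with the CXCL2, EREG and PPBPP2 SEs marked. The CXCL2 SE ranks 648, 531 and 598 in TM 1, TM 2 and TM 3, and no DMSO panel carries a marked point.

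Whether a DMSO SE of equal signal would have been listed was read from the thresholds. The lowest CXCL2 signal, in TM 1, was 1.07 times the highest DMSO threshold as deposited. Divided by the median density of the regions that all libraries share it was 1.03 times that threshold, and divided by their median total signal 1.51 times. All 3 TM signals were above that threshold on each scale. An SE stitched alike with the TM 1 signal would therefore have been listed in each DMSO library, by a small margin on 2 of the 3 scales. The lists of the groups differed in stitching, however. The median number of peaks per SE was 8, 8 and 7 in TM 1 to TM 3. In DMSO 1 to DMSO 3 it was 14.5, 13 and 16. The median length was 40.8, 44.0 and 38.0 kb in TM, against 61.4, 50.9 and 65.5 kb in DMSO. The effect of this difference on the threshold comparison was not tested. Among the 135 regions listed in every TM library and no DMSO library, CXCL2 stood 29th by mean signal (37254, against a median of 29339) and 38th by density (1.36, against 0.981), but 79th by length (27.5 kb, against 29.7 kb). Regions called in all 6 libraries, averaged over TM and DMSO libraries, had a median signal of 49223, a median density of 0.868 and a median length of 60.2 kb. The values of CXCL2 and of the 135 regions are means over TM libraries only, so these medians are not a like comparison. By library, the median density of the shared regions was 0.802, 1.13 and 0.938 in TM 1 to TM 3. In DMSO 1 to DMSO 3 it was 0.788, 0.642 and 0.762.

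**Figure D3:**
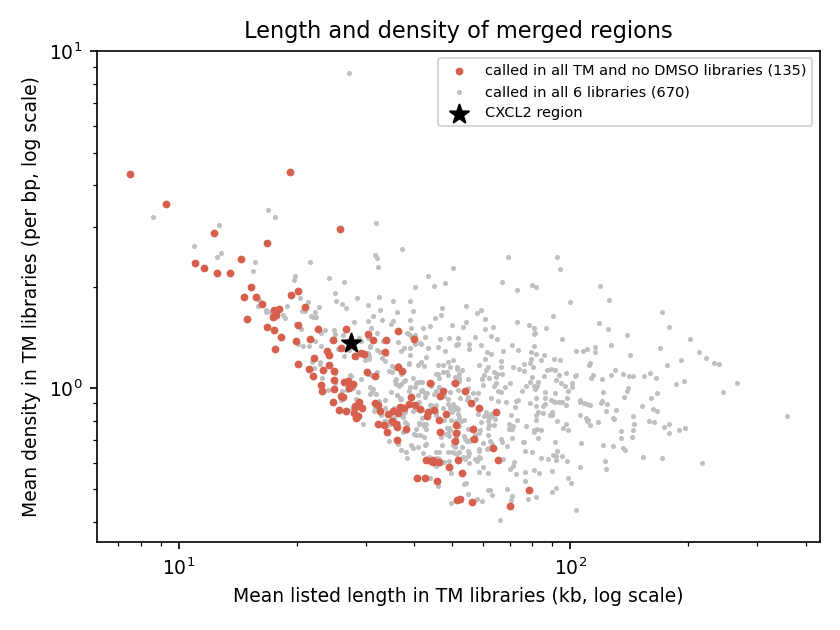
Mean density per base pair against mean listed length in kb (log axes, both over TM libraries) for the 135 merged regions listed in every TM and no DMSO library (red) and the 670 listed in all 6 libraries (grey), with the CXCL2 region as a star. The CXCL2 region lies at 27.5 kb and 1.36 per bp, above the median density of 0.981 and close to the median length of 29.7 kb.

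The EREG SE was listed in TM 2 and TM 3 and in no other library. With 2 of 3 TM and 0 of 3 DMSO libraries, the calls gave p = 0.4 (two-sided exact permutation test), a pattern shared by 5.1% of merged regions. It lay at 75224055 to 75249482 in TM 2 and 75226848 to 75245300 in TM 3, with midpoints in intron 1 of 4. Both reached over the start site (75230860, plus strand), by 6.81 kb upstream and 18.6 kb along the gene in TM 2 and by 4.01 and 14.4 kb in TM 3, so that more of the EREG SE lay on the gene side, unlike that of CXCL2. Its signal was 39582 in TM 2 and 20349 in TM 3, with densities of 1.56 and 1.10, 7 and 5 peaks, and ranks of 824 of 1507 and 1125 of 1253. In TM 3 it was 1.08 times the threshold of its library. Set against the highest DMSO threshold, TM 3 reached 0.821 of it as deposited, 0.678 scaled by density and 1.02 scaled by total signal, so on 2 of the 3 scales an equal DMSO signal could have stayed unlisted.

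PPBPP2 had an SE in TM 2 alone (p = 1 by a two-sided exact permutation test on 3 libraries per group). The pattern of exactly 1 TM and 0 DMSO libraries held for 11.9% of merged regions. The SE lay at 74903059 to 74930075, was 27.02 kb long and had 7 peaks, a signal of 28218 and a density of 1.04. At rank 1380 of 1507 it was 1.07 times the threshold of TM 2 and 0.957 times the median density of that list. Set against the highest DMSO threshold its signal was 1.14 times as high as deposited, 0.779 scaled by density and 0.906 scaled by total signal, so an equal signal in DMSO could have gone unlisted on 2 of the 3 scales. In the order of RefSeq genes PPBPP2 stands between CXCL3 and CXCL2. The SE therefore lay on the CXCL3 side of CXCL2, with 31.1 kb between it and the CXCL2 SE of TM 2. Whether it also reached over the CXCL3 start site was not determined, because the deposited build is not named.

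**Figure D4:**
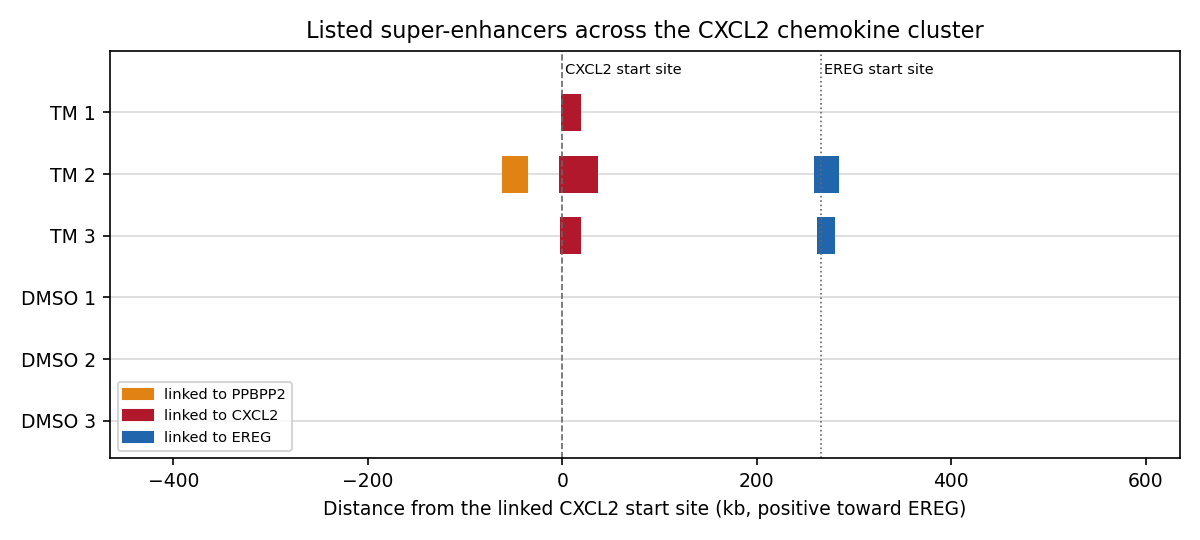
Listed SEs of the interval in each library, TM libraries above DMSO libraries, with distance in kb from the CXCL2 start site on the x axis and 1 bar per SE, coloured by linked gene. TM 1, TM 2 and TM 3 hold 1, 3 and 2 SEs, and the DMSO rows are empty.

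TM 1, TM 2 and TM 3 thus held 1, 3 and 2 SEs in the interval, and the DMSO libraries held 0 each (2 ± 1 in TM, against 0 in DMSO, SD, n = 3 each, exact permutation p = 0.1). They covered 20.6, 92.7 and 40.0 kb in TM 1 to TM 3 (51.1 ± 37.3 kb, exact permutation p = 0.1 against 0 kb in DMSO). Their summed signals were 26516, 121691 and 51704 (66637 ± 49314, exact permutation p = 0.1), and they joined 6, 22 and 7 peaks (11.7 ± 8.96). DMSO libraries counted as 0 in each of these tests. The p-values for number, length and signal were therefore fixed by the calls alone and are not separate results. Without TM 2 the TM means were 30.3 kb, 39110 and 6.5 peaks. TM 2, which had the longest list, was highest in each of these sums, whereas the density over the listed SEs was 1.29, 1.31 and 1.29 (1.30 ± 0.0138). That density pools 1, 3 and 2 SEs whose own densities ran from 1.04 to 1.56, and its small SD describes the pooled values only. In the lists used here the 6 members were the only SEs in a stretch of 35.8 to 36.0 Mb between SEs linked to LIMCH1 and MIR548AH. The stretch held 1, 3 and 2 SEs in TM 1 to TM 3 and 0 in each DMSO library. The numbering of the deposited peaks gives only a lower and an upper bound for the peaks called in the stretch in each library. These bounds ran from 189 to 427 over TM libraries and from 214 to 382 over DMSO libraries, so the stretch was not free of peaks. The nearest other SE to that of CXCL2 was 2.52 Mb away in TM 1, 31.1 kb away in TM 2 and 242.7 kb away in TM 3.

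Of the 9 CXC chemokine genes of the interval (CXCL8, CXCL6, PF4V1, CXCL1, PF4, PPBP, CXCL5, CXCL3 and CXCL2), only CXCL2 was linked to an SE. Of 8 other genes listed for the interval, a list that does not hold PPBPP2 and of which 7 were found in RefSeq, EREG was the linked one. Its neighbours in RefSeq order, EPGN and AREG, were not linked. An SE is linked to 1 nearest gene, so the lists hold no separate value for the other genes that it may cover. ALB, AFP and AFM, liver genes that flank the cluster, were linked in 0 libraries, and so were the 13 CXC receptors and other CXC ligands.

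No region of the interval was called in all 6 libraries, so none could be tested for a change of density between the groups. Over the 670 regions that were, limma (adjusted p under 0.05) called density, centred on the library median, higher in TM for 6.72% and lower for 10.6%, and total signal higher for 18.7% and lower for 13.7%. Without centring, 133 regions were called higher and 1 lower in density (45 and 71 with centring), and 7 higher and 22 lower in total signal (125 and 92). Without 1 DMSO library, 52 to 59 regions in place of 116 changed in density. The median density of these regions was 0.38 higher in TM on the log2 scale before centring, and changes are relative to it. NFKBIA, the gene of the NF-kB inhibitor IkB-alpha, had densities of 0.433, 0.607 and 0.430 in TM 1 to TM 3, against 0.616, 0.527 and 0.661 in DMSO 1 to DMSO 3, and these overlap. Centred, its log2 density fell by 0.69 ± 0.098 (adjusted p = 0.00451 by limma, errors here being standard errors), whereas without centring the difference was -0.31 (adjusted p = 0.265). The total signal of NFKBIA did not overlap, at 38774, 54866 and 38334 in TM, against 80780, 57314 and 67302 in DMSO. Centred, the log2 total differed by -0.64 ± 0.13 (limma adjusted p = 0.0128, and 0.0549 without DMSO 1). Without centring that difference was -0.64 (limma adjusted p = 0.429). EGFR, a receptor of epiregulin, had densities of 0.975, 1.39 and 1.19 in TM, against 0.831, 0.706 and 0.830 in DMSO, and these did not overlap. Centred, the difference was 0.19 ± 0.11 (adjusted p = 0.239), and without centring 0.57 (adjusted p = 0.101), so neither passed the test, and the listed length was 225, 260 and 214 kb in TM, against 354, 300 and 361 kb in DMSO. The centred log2 total signal of EGFR differed by 0.041 ± 0.049 (limma adjusted p = 0.538). MIR548AH, the nearest SE beyond the stretch, differed by -0.24 ± 0.12 (adjusted p = 0.204, and 0.0471 without TM 1). Without centring its difference had the opposite sign, 0.14 (adjusted p = 0.631).

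NF-kB and ER stress genes had SEs of their own in some libraries. Of 12 NF-kB pathway genes 6 were linked in any library, and 0 of these 6 in 3 TM and 0 DMSO libraries, where the share over all linked genes was 6.94%. With 6 linked genes this count shows nothing particular to the pathway. TNFAIP3, which encodes an NF-kB inhibitor, had signals of 44449 and 27243 in DMSO 1 and DMSO 2 and was not listed in TM, and NFKBIZ was likewise listed only in DMSO 1 and DMSO 2 (27234 and 22114). TNFAIP2 was listed in 3 TM and 2 DMSO libraries, BIRC3 in 2 and 2, and NFKB2 in 1 and 1. Of 10 ER stress factors, ATF3 (48738, 63115 and 53648 in TM 1 to TM 3) and ERN1, which encodes IRE1 (34189, 52902 and 32519), were listed in 3 TM and 0 DMSO libraries. These are 2 of the 3 factors linked in any library, beside 6.94% of all linked genes. With 3 linked factors, on a list chosen with earlier results known, this count also shows nothing particular to ER stress. ATF6 was listed in TM 2 alone, and ATF4, DDIT3, CEBPB, JUN, FOS, XBP1 and EIF2AK3 in no library.

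The linked genes most like CXCL2 in rank percentile over the 6 libraries, with unlisted as 0, were MSC, MRPS18B, LINC02111, EIF3F and ABI3BP, on 5 different chromosomes. Their mean absolute differences from CXCL2 were 1.41, 1.99, 2.10, 2.25 and 2.30 percentile points, and none of these genes was linked in a DMSO library. CXCL2 counted as 0 in DMSO, so this choice favours genes that are unlisted there, and their absence from DMSO is not a separate result. The merged regions of 4 of the 5 genes were listed in 3 TM and 0 DMSO libraries, as that of CXCL2 was, which the choice also favours. The region of LINC02111, in contrast, was listed in all 6 libraries and linked to BASP1 in DMSO. MSC stood at the 44.9, 58.7 and 52.2 percentile in TM 1 to TM 3, against 42.7, 64.8 and 52.4 for CXCL2.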

How the data were processed

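H3K27ac ChIP-seq libraries of HepG2 cells (3 TM and 3 DMSO) were used, and an input library was not analysed here. That input was the only one among the samples and by its title came from a control, so the TM group had no input of its own. The authors deposited 1 list of SEs per library with a signal per SE. Region names show that MACS peaks had been stitched library by library, with nearest-gene columns laid out as by HOMER. CASAVA 1.4 appears in the submitters' processing notes, as do mm9 and hg38, without a role. For the aligner, versions, stitching distance, library scaling and coordinate build, the entry is: not given in the sources used here. Dividing the deposited signal by the length gave steps of 0.0001 per bp (100% of SEs, tolerance 0.001 of a step), so longer SEs have larger sums. SEs below the threshold of a library are missing from its list. Precision is limited by 3 libraries per group.

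Groups came from the treatment labels. Gene names were updated by Entrez ID in a RefSeq table of GRCh38.p14, which matched 7434 of 7472 SEs and was otherwise used for the order of genes, strands and promoters. The start sites implied by the deposited distances lay within 5 kb of a GRCh38.p14 end of the same gene for 11.4% of 7402 SEs and for 0 of the 6 members, so the deposited positions are not on that build. They are printed as deposited and were not converted. SEs sharing 1 bp or more were merged. Unlisted SEs counted as 0 for calls, length, signal and peaks, and were left out for density and rank. Groups were compared by exact permutation tests, and regions called in all 6 libraries by limma 3.58.1 (trend, R 4.3.3) on log2 values, with Benjamini-Hochberg adjustment over 670 regions. Tested on simulated data for these 670 regions, the fit recovered 76% of log2 changes of 0.5 and 92% of those of 1.0, with 1.91% of unchanged regions called. Python 3.11.15, pandas 2.3.3, numpy 2.4.6, scipy 1.17.1, Biopython 1.88 and matplotlib 3.10.9 were used.

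The members, the gene lists and the tests were chosen with earlier results of these data known. Named genes were those linked in the interval, the members of the fixed lists and the 5 linked genes most like CXCL2. Alternatives were a common threshold, SEs touching the interval, an overlap of 50%, library scaling, no centring, the replicate number as a block and leaving out each library. The promoter words were settled after a first search: a longer NF-kB word, which the CXCL1, CXCL2 and CXCL3 promoters also held, was shortened to 9 bases, and a longer ER stress element, found in none of the 6 promoters, was replaced by the core of the unfolded protein response element.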

Additional observations from a re-analysis of the deposited data

How the results depend on the processing

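CXCL2 stayed listed in 3 of 3 TM and 0 of 3 DMSO libraries with all lists limited to SEs at or above the highest library threshold (26265), and the EREG SE of TM 3 was lost. The density of the listed SEs was then 1.35 in place of 1.30, regions listed in every TM and no DMSO library (TM-only) numbered 47 in place of 135, and the reverse (DMSO-only) 42 in place of 97. With 1 library left out at a time, TM-only regions numbered 142 to 203 (203 without TM 1) and DMSO-only regions 102 to 150 (150 without TM 2). The interval held 1.5 to 2.5 SEs in TM, covering 30.3 to 66.4 kb with a signal of 39110 to 86697, and the lower end of each is without TM 2. The mean CXCL2 signal was 28935 to 42623 with 1 TM library left out, an alternative chosen after seeing the data. Shared regions with a changed density numbered 116 (52 to 144 with 1 library left out, and 52, 59 and 57 without DMSO 1, DMSO 2 and DMSO 3), and those with a changed total signal 217 (122 to 251 with 1 library left out, with 124, 131 and 122 without DMSO 1, DMSO 3 and TM 3, and 29 without centring). The MIR548AH density passed the test without TM 1 (-0.34, limma adjusted p = 0.0471), and without centring its sign was reversed (0.14, adjusted p = 0.631), with neither that nor the centred value past the threshold over all 6 libraries.

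Same-numbered TM and DMSO libraries were not more alike than others (correlations of same-numbered deviations -0.00802, -0.0466 and -0.0259 over 670 regions). Other-numbered pairs ran from -0.0666 to 0.0795. Whether same-numbered libraries shared a culture or a batch was not tested. With the replicate block, 95 shared regions changed in density and 135 in total signal. The paired exact permutation p for the summed signal of the interval (66637) was 0.25, the smallest that 3 pairs can give. Like the unpaired p, it was fixed by the calls alone. A limma fit of interval regions called in all 6 libraries gave no value, since there were 0. The thresholds and 3 libraries per group limit what can be detected.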
